A study of Mus musculus with 8 samples.

Results

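The Taf5-kd lines are 2 clonal mouse embryonic stem (ES) cell lines that stably express a short hairpin RNA against Taf5, and they are set here against the ES cells they were made from. They were chosen by their label alone, a TAF5 knockdown as the genetic modification, which gives 4 of the 8 arrays and 2 of the 4 knockdown lines of the study. Each line was grown in duplicate and hybridised on 2 arrays with the dyes exchanged. The other 4 arrays hold 2 control knockdown lines (control-kd), made in the same way with a control hairpin. Every array carried, in its other channel, 1 pool of RNA from the parental cells, the IB10 subclone of the E14 line. The parental cells were cultured on gelatin in serum with LIF, and so were both kinds of knockdown line. Both kinds of line also went through transduction with a pLKO-puro lentivirus, puromycin selection and the picking of single resistant colonies after 10 days. No such step is given for the parental cells, so in a ratio to the pool the loss of Taf5 cannot be told apart from viral transduction, selection and cloning, and the control-kd lines are given beside the Taf5-kd lines for that reason. Each line is 1 clone. In bulk RNA of this kind, fewer cells of a type and less RNA per cell cannot be told apart.

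Taf5 is a WD40-repeat subunit of TFIID. This general transcription factor recognises core promoters and helps RNA polymerase II to assemble there. TFIID is made of the TATA-binding protein Tbp and the Tbp-associated factors (TAFs), and Taf5 belongs to the core on which the other subunits are built. In ES cells TFIID is the machinery on which the pluripotency factors Oct4, Sox2 and Nanog act, and the title of the series places TFIID in that circuit.

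All values below are log2 ratios of a line's RNA over the parental pool, from the authors' processed matrix, or differences between such ratios. A positive value is a higher signal in the knockdown line. The 2 arrays of a line were averaged, and the mean of the 2 Taf5-kd lines was tested against 0 with limma over 41174 mouse probes. Adjusted p-values are Benjamini-Hochberg values over all probes, and a probe was called when its adjusted p was under 0.05. Errors are standard errors of the fit (n = 2 lines per group). They hold the spread between lines within both groups, which share a common estimate, but not the spread of the pool, which was a single RNA. The difference between the Taf5-kd and the control-kd ratios was tested in the same fit, where the pool cancels. The comparisons of each kind of line with the pool share that pool. Where values per array are given, the first pair is Taf5-kd #1 (or control-kd #1) and the second pair is #2. A gene is represented by its brightest probe, which gives 18295 genes with a symbol.

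The arrays were of similar quality. The median signal in the channel of the knockdown line was 123 to 186 units over a background of 35.0 to 39.5, and 90.9 to 98.7% of mouse probes stood above background by 2 background SDs. Each group holds 2 lines, which bounds how precisely its mean is known. Of 12 ES cell markers, all 12 were above background on all 4 Taf5-kd arrays, and their median log2 ratio was -0.16 in Taf5-kd lines and 0.32 in control-kd lines. Markers of other cell types passed that threshold too. On all 4 Taf5-kd arrays 8 of 11 fibroblast, 7 of 7 primitive endoderm and 6 of 7 trophoblast markers were above background. So were 5 of 5 neural and 3 of 4 blood markers. Because 90.9 to 98.7% of all mouse probes passed it, the threshold cannot show whether a marker gene was expressed. The list medians of these other markers lay between -0.10 and 0.15 in Taf5-kd lines. Among them Twist1 (0.52) and the trophoblast and caudal factor Cdx2 were higher than the pool. The trophoblast keratin gene Krt7 (-1.43, adjusted p = 0.00765), the blood gene Laptm5 (-1.21) and the fibroblast genes Thy1 (-0.55) and Postn (-0.29) were lower, and Col1a1 (-1.41, adjusted p = 0.0711) had no call. In control-kd lines Krt7 (-1.89), Postn (-0.20) and Twist1 (0.37) were called in the same direction, and Col1a1 was called lower (-3.40). There Laptm5 (0.93) and Cdx2 (-1.18) were called the other way, and Thy1 (-0.10) had no call. The part of other cell types in the results was not tested.

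Taf5 itself was lowered in both lines. Its log2 ratio was -1.18, -1.16, -1.08 and -1.19 on the 4 Taf5-kd arrays, against 0.49, 0.58, 0.18 and 0.16 on the 4 control-kd arrays. The groups did not overlap, and #1 minus #2 was -0.03 within the Taf5-kd lines. The mean of -1.15 ± 0.095 is a 2.22-fold lower signal than in the pool (adjusted p = 0.0087). Set against control-kd lines the difference was -1.50 (adjusted p = 0.0204), since the control-kd mean of 0.35 lay above the pool without a call (adjusted p = 0.0676). The 3 Taf5 probes on the array read -1.15, -1.22 and -1.24. Leaving out either Taf5-kd line kept the value (-1.13 without #1, -1.17 without #2), but with 1 line left the adjusted p was 0.0832 and 0.0741.

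Against the parental pool 7662 of 41174 mouse probes were called (18.6%), of which 3425 were higher (8.32%) and 4237 lower (10.3%). By gene, 3924 of 18295 were called (21.4%), 1835 higher (10.0%) and 2089 lower (11.4%). Large changes were mostly decreases. At least 2-fold higher were 17 genes (0.0929%), and at least 2-fold lower were 153 genes (0.836%). The median over all genes was 0.0045, with quartiles at -0.10 and 0.10. In control-kd lines 2111 genes (11.5%) were higher than the pool and 3189 (17.4%) lower. Of all genes, 1300 (7.11%) were lower and 494 (2.7%) higher than the pool in both kinds of line, while 277 (1.51%) were higher in Taf5-kd and lower in control-kd lines and 132 (0.722%) were lower in Taf5-kd and higher in control-kd lines. The difference between Taf5-kd and control-kd lines was called for 3610 probes (8.77%), 2241 higher in Taf5-kd (5.44%) and 1369 lower (3.32%). By gene it was called for 2109 (11.5%), 1319 higher in Taf5-kd (7.21%) and 790 lower (4.32%). Both conditions together, a call against the pool and a call against control-kd in the same direction, were met by 682 genes higher (3.73%) and 361 genes lower (1.97%). The number of calls depended on both lines and on the normalization. With either Taf5-kd line left out 0 probes passed the adjusted threshold (9430 without #1 and 9695 without #2 had an unadjusted p under 0.05), and scanner values centred on each array's median without loess gave 334 probes, 68 higher and 266 lower. Under at least 1 of the other settings the calls of Zfp677, Klhl13, Grb10, Taf4, Taf4b, Taf5l, Tet2 and Cdh2, named below, also ended. Probes of a gene often disagreed: of 77 called named genes with more than 1 probe, 39 had at least 1 other probe without a call and 22 had no other probe called.

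**Figure D1:**
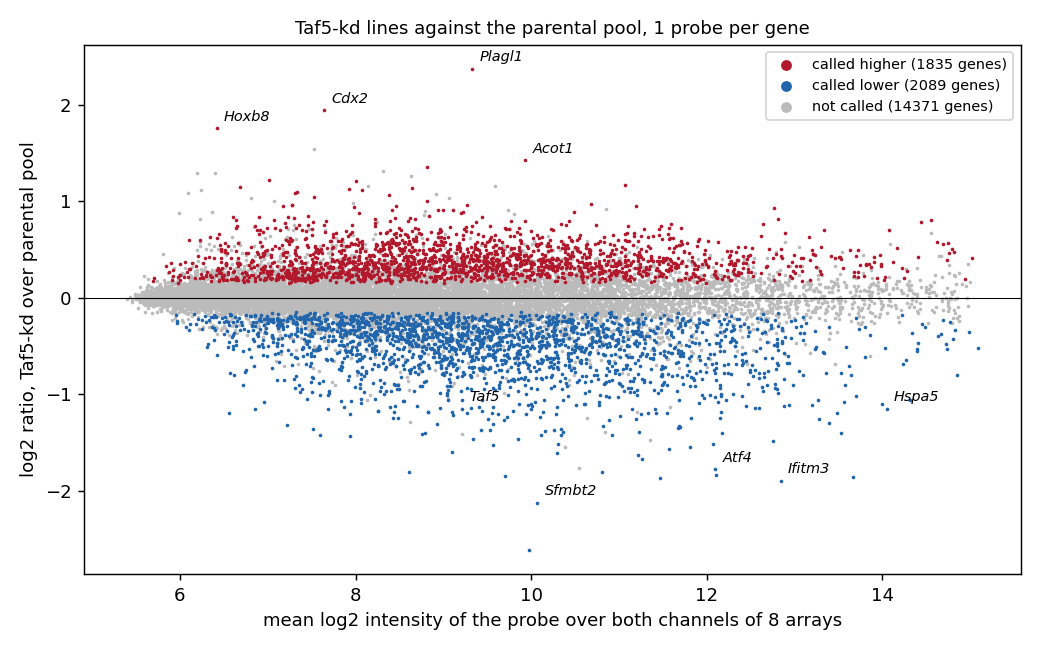
Each point is 1 gene at its brightest probe, with the mean log2 intensity over both channels of the 8 arrays on the x axis and the mean log2 ratio of the 2 Taf5-kd lines to the parental pool on the y axis; called genes are coloured. The called genes spread to both sides of 0, with 17 genes at least 2-fold higher and 153 at least 2-fold lower.

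Among named genes Plagl1, Cdx2 and Hoxb8 had the largest increases. Plagl1, an imprinted zinc finger transcription factor, read 2.32, 2.19, 2.49 and 2.49 on the Taf5-kd arrays, against -1.70, -1.47, -1.77 and -1.83 on the control-kd arrays. All Taf5-kd arrays were far above the pool and all control-kd arrays far below it. Its mean was 2.37 ± 0.083 (5.18-fold, adjusted p = 0.00765), and the difference between the 2 kinds of line was 4.06 (adjusted p = 0.017). A second Plagl1 probe read 0.17 (adjusted p = 0.118) and was not called, so the probes of this gene disagreed.

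Cdx2, the homeobox factor of the trophectoderm and later of the caudal embryo, read 2.38, 2.44, 1.49 and 1.45 in Taf5-kd lines, against -1.29, -1.18, -1.05 and -1.20 in control-kd lines. The groups did not overlap, and Taf5-kd #1 was higher than #2. The mean was 1.94 ± 0.233 (3.84-fold, adjusted p = 0.0147) and the difference from control-kd 3.12 (adjusted p = 0.0231). Hoxb8, a posterior Hox gene, read 1.52, 1.54, 1.89 and 2.06 in Taf5-kd lines, against -0.17, -0.27, -0.18 and -0.27 in control-kd lines. It rose by 1.75 ± 0.114 against the pool (adjusted p = 0.00771) and by 1.97 against control-kd (adjusted p = 0.0188). Its second probe, above background on 3 of 4 arrays, read 0.10 (adjusted p = 0.502). En2, a homeobox gene of the midbrain and hindbrain, read 1.23, 1.16, 1.09 and 1.06 in Taf5-kd lines, against 0.19, 0.21, -0.04 and 0.04 in control-kd lines, and rose by 1.13 ± 0.065 (adjusted p = 0.00765).

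Hox and Cdx genes as a family, a list added after their values were seen, had 10 of 39 measured genes higher than the pool and 0 lower, beside 10.0% and 11.4% of all genes, with a median of 0.18 in Taf5-kd and 0.00 in control-kd lines. The members that rose were Cdx2, Hoxb8, Hoxd13 (0.73), Hoxc9 (0.66), Hoxa11, Hoxa9, Hoxb7 (0.48), Hoxc6 (0.39), Hoxd1 and Hoxb1. Of these, Cdx2, Hoxb8, Hoxb7 and Hoxc6 also passed the test of the difference from control-kd lines, which 7.21% of all genes passed as higher. Some of the largest means in the family had no call, with the 2 lines far apart. Hoxb2 read 0.29, 0.32, 2.30 and 2.25 (adjusted p = 0.15), and Hoxa5 read 0.45, 0.51, 1.62 and 1.74 (adjusted p = 0.0791), in both cases with Taf5-kd #2 above #1. Of the 39 genes, 31 were above background on all 4 Taf5-kd arrays.

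Acot1, Fabp7, Pctp and Hacl1 were also among the 12 largest increases. Acot1, a cytosolic acyl-CoA thioesterase, read 1.48, 1.46, 1.39 and 1.37 in Taf5-kd lines, against 0.23, 0.14, 0.55 and 0.66 in control-kd lines, a rise of 1.42 ± 0.11 (adjusted p = 0.00831). Fabp7, the brain fatty acid binding protein, rose by 1.21 ± 0.098 (adjusted p = 0.00848) and stood 1.66 above control-kd lines. Pctp, the phosphatidylcholine transfer protein, rose by 1.21 ± 0.065, and both of its probes were called (1.21 and 0.67). For all 3 genes the difference from control-kd lines was called too. Hacl1, a peroxisomal enzyme of fatty acid alpha-oxidation, rose by 1.11 ± 0.053 in Taf5-kd and by 0.85 in control-kd lines, and that difference of 0.26 was not called (adjusted p = 0.124).

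The remaining leading increases were the zinc finger gene Zfp677 (1.35 ± 0.256), the desmosomal protein gene Pkp2 (1.16 ± 0.158), the neural bHLH repressor gene Bhlhe22 (1.14 ± 0.203) and Rgs2 (1.12 ± 0.139), an inhibitor of G protein signalling. Zfp677 read 1.69, 2.04, 0.81 and 0.86 in Taf5-kd lines, against -1.64, -1.64, -1.25 and -1.68 in control-kd lines. Rgs2 read 1.26, 1.39, 0.92 and 0.91 in Taf5-kd lines, against -0.78, -0.85, -0.40 and -0.47 in control-kd lines. In each of these genes both lines were above the pool, and in Zfp677, Pkp2 and Rgs2 the difference from control-kd lines was called. Rgs2 had 2 further probes without a call (0.14 and 0.0043). Genes that rose in both kinds of line included Ube2dnl1 (1.09 in Taf5-kd, 0.53 in control-kd), Nt5c3b (1.06 in Taf5-kd, 0.32 in control-kd), Vps53 (0.91 in Taf5-kd, 0.26 in control-kd) and Septin10 (0.90 in Taf5-kd, 1.04 in control-kd).

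**Figure D2:**
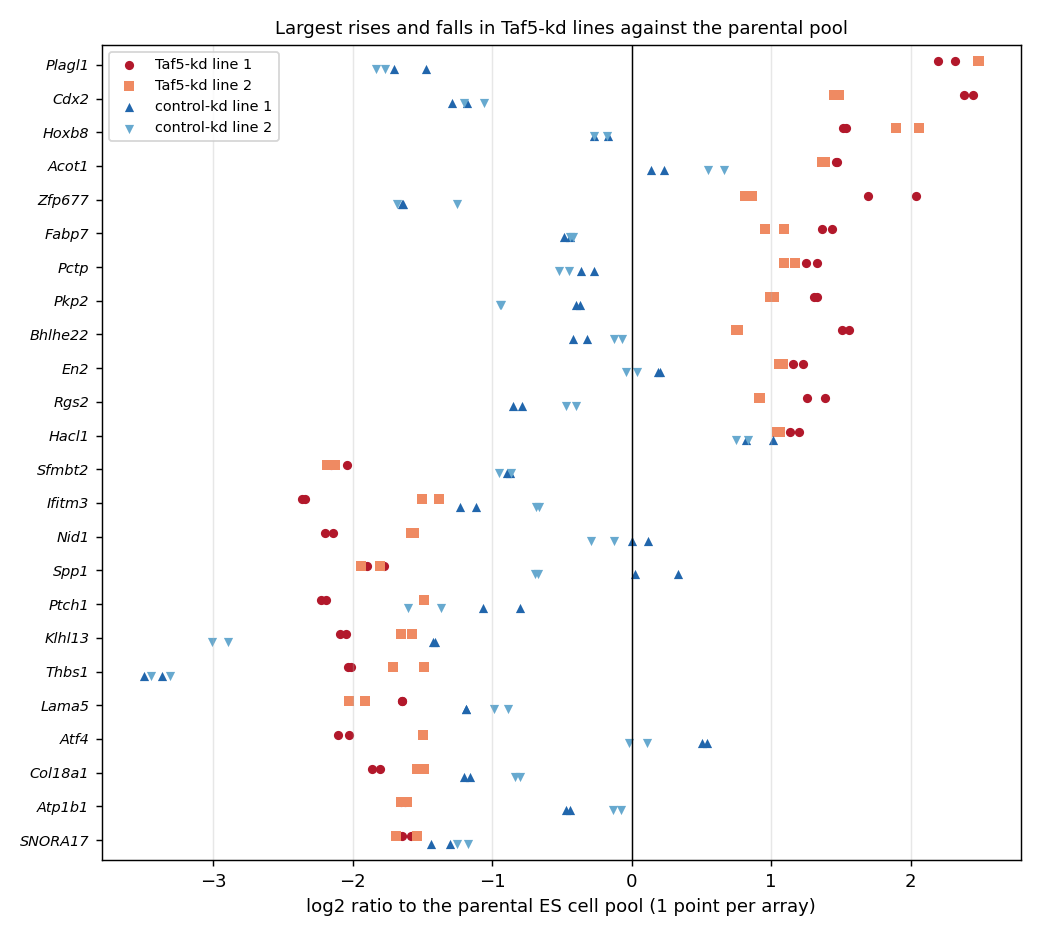
Log2 ratios to the parental pool are on the x axis, with 1 point per array, for the 12 largest increases and 12 largest decreases among named genes; colours separate Taf5-kd from control-kd arrays. Plagl1 and Cdx2 sit above 1.4 on every Taf5-kd array and below -1.0 on every control-kd array, whereas Thbs1 and Klhl13 lie below -1.4 in both kinds of line.

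Among the decreases, Sfmbt2 had the largest mean of the genes with an established name. Sfmbt2 is an imprinted gene for a Polycomb-associated protein with MBT domains. It read -2.04, -2.15, -2.18 and -2.13 in Taf5-kd lines, against -0.87, -0.90, -0.95 and -0.86 in control-kd lines. Both groups lay below the pool without overlap. The mean was -2.12 ± 0.036 (adjusted p = 0.00765), 4.36-fold below the pool, and the difference from control-kd lines was -1.23 (adjusted p = 0.017). Its 2 dimmer probes read -0.06 and -0.10 and were not called.

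Atf4, the transcription factor that induces amino acid and stress genes, read -2.10, -2.03, -1.49 and -1.50 in Taf5-kd lines, against 0.51, 0.54, 0.11 and -0.02 in control-kd lines. It fell by 1.78 on the log2 scale (SE 0.183, adjusted p = 0.0116), 3.43-fold, and its difference from control-kd lines was -2.06 (adjusted p = 0.0288). Slc7a1, which imports arginine and lysine, read -1.68, -1.65, -1.37 and -1.42 in Taf5-kd lines, against 0.31, 0.28, 0.55 and 0.61 in control-kd lines. Both genes were lower than the pool on every Taf5-kd array, and on each the Taf5-kd arrays lay below all control-kd arrays. For Slc7a1 the mean was -1.53 ± 0.102 (adjusted p = 0.00771), and the difference from control-kd lines -1.97 (adjusted p = 0.0183). A dimmer Slc7a1 probe was also lower than the pool in Taf5-kd lines (-0.42, adjusted p = 0.0213). It read -0.42 in control-kd lines too, without a called difference (adjusted p = 0.978), so the probes disagreed on the difference.

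For Nid1, Atp1b1, Spp1, Tenm4 and Spink1 every Taf5-kd array lay below every control-kd array. Nid1, the basement membrane linker nidogen, read -2.14, -2.20, -1.58 and -1.56 in Taf5-kd lines, against 0.12, 0.00, -0.29 and -0.13 in control-kd lines. Its mean of -1.87 ± 0.162 (adjusted p = 0.00906) was 3.65-fold below the pool, and the difference from control-kd lines was -1.80 (adjusted p = 0.0294). Atp1b1, a beta subunit of the sodium pump, read -1.63, -1.65, -1.65 and -1.61 in Taf5-kd lines, against -0.47, -0.44, -0.07 and -0.13 in control-kd lines. The 4 Taf5-kd arrays were nearly identical for Atp1b1, and its difference from control-kd lines was -1.36 (adjusted p = 0.0219). Spp1, the secreted matrix protein osteopontin, fell by 1.85 on the log2 scale (SE 0.212, adjusted p = 0.0136), with a difference from control-kd lines of -1.60 that narrowly missed the threshold (adjusted p = 0.0533). Tenm4, a teneurin of the cell surface, averaged -1.43 ± 0.054 in Taf5-kd and 0.59 in control-kd lines, with a called difference of -2.02 (adjusted p = 0.017). Spink1, a secreted trypsin inhibitor, averaged -1.52 ± 0.159 in Taf5-kd and 0.74 in control-kd lines.

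Several of the largest decreases were found in control-kd lines as well. Thbs1, the matrix glycoprotein thrombospondin, read -2.03, -2.01, -1.71 and -1.49 in Taf5-kd lines, against -3.37, -3.50, -3.31 and -3.45 in control-kd lines, so it fell less in Taf5-kd lines (difference 1.60, adjusted p = 0.0221). Ptch1, the Hedgehog receptor, averaged -1.85 in Taf5-kd and -1.21 in control-kd lines. Its 5 probes ranged from -1.85 to -0.0035. Lama5, a laminin chain, averaged -1.81 in Taf5-kd and -1.06 in control-kd lines. Col18a1, a basement membrane collagen, averaged -1.67 ± 0.122 in Taf5-kd lines and was called lower in control-kd lines too (adjusted p = 0.0118). Klhl13, an adaptor of a ubiquitin ligase, averaged -1.84 ± 0.390 in Taf5-kd and -2.18 in control-kd lines, and its 3 other probes lay between -0.10 and 0.08. The probe annotated SNORA17 averaged -1.61 in Taf5-kd and -1.29 in control-kd lines. Of these, only Thbs1 differed between the 2 kinds of line by the test. Ifitm3, an interferon-induced membrane protein, read -2.36, -2.34, -1.38 and -1.50 in Taf5-kd lines, against -1.23, -1.12, -0.67 and -0.69 in control-kd lines, and its difference of -0.97 was not called (adjusted p = 0.192).

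Of the 17 TFIID subunits on the array, 7 were higher than the pool and 3 lower, beside 10.0% higher and 11.4% lower over all genes. Their median log2 ratio was 0.14 in Taf5-kd and 0.14 in control-kd lines. Apart from Taf5, the decreases were in Taf8 (-0.33 ± 0.048, adjusted p = 0.0201) and Taf4 (-0.20 ± 0.042, adjusted p = 0.0466), a histone-fold partner of Taf10 and a histone-fold partner of Taf12. The second Taf4 probe had no call (-0.10). A dimmer Taf3 probe was called lower (-0.43, adjusted p = 0.0167) and a dimmer Taf10 probe higher (0.17, adjusted p = 0.0399), but the brightest probes of both genes had no call. Taf8 read -0.42, -0.34, -0.27 and -0.30 in Taf5-kd lines, against 0.14, 0.01, -0.07 and 0.00 in control-kd lines. The groups did not overlap, but the difference missed the threshold (adjusted p = 0.0557).

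The subunits that rose were Taf12, Taf6, Taf15, Taf9b, Taf2, Tbp and Taf4b. Taf12 read 0.67, 0.63, 0.65 and 0.62 in Taf5-kd lines, against 0.39, 0.44, 0.63 and 0.65 in control-kd lines, and these groups overlapped. The histone-fold subunit Taf6 averaged 0.45 ± 0.045 in Taf5-kd and 0.20 in control-kd lines, and Taf9b, a paralog of its partner Taf9, 0.42 ± 0.045 in Taf5-kd and 0.13 in control-kd lines. Taf2, which contacts promoter DNA near the start site, averaged 0.42 ± 0.049 in Taf5-kd and 0.24 in control-kd lines, and Tbp 0.25 ± 0.037 in Taf5-kd and 0.33 in control-kd lines. At their brightest probes none of the 7 differed from control-kd lines by the test. By brightest probe 0 of 17 subunits passed that test as higher in Taf5-kd, where 7.21% of all genes did. A dimmer Taf9b probe did pass as higher (0.28 in Taf5-kd, -0.24 in control-kd, difference adjusted p = 0.0416). The 2 subunits that passed as lower by brightest probe were Taf5 and Taf7, a subunit that binds Taf1. Taf7 averaged 0.17 in Taf5-kd (adjusted p = 0.0809) and 0.63 in control-kd lines. Taf5l, the paralog of Taf5 in the SAGA coactivator, averaged -0.30 ± 0.057 in Taf5-kd (adjusted p = 0.0366) and -0.49 in control-kd lines, with no called difference (adjusted p = 0.236).

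**Figure D3:**
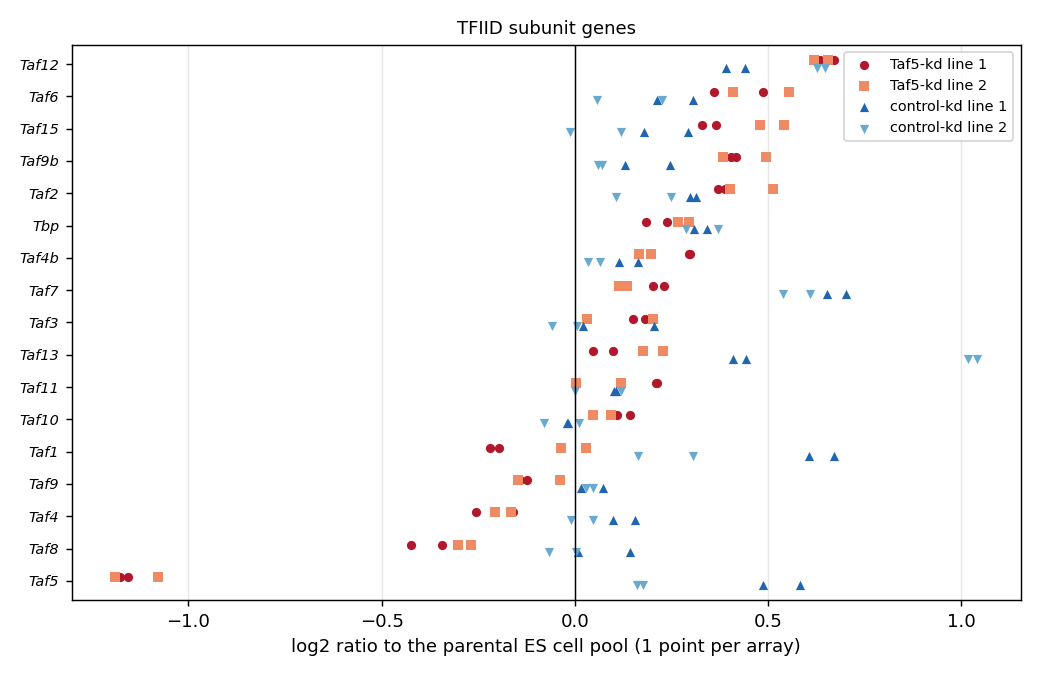
Log2 ratios to the parental pool on the x axis, 1 point per array, for each TFIID subunit, with Taf5-kd and control-kd arrays in different colours. Taf5 is the 1 subunit whose Taf5-kd arrays lie below -1.0; the other subunits lie within 0.7 of the pool on the Taf5-kd arrays.

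In Taf5-kd lines other parts of the initiation machinery had more increases than decreases. Of 29 RNA polymerase II subunits and general factors, 8 were higher and 1 lower, of 21 SAGA and ATAC subunits 6 were higher and 1 lower, and of 30 Mediator subunits 6 were higher and 1 lower, beside 10.0% and 11.4% of all genes. Members on chromosomes 8 and 11, which are described further down, made up 2, 3 and 3 of those increases. Control-kd lines had as many increases on the first 2 lists. There 8 general factors were higher and 4 lower, and 6 SAGA and ATAC subunits were higher and 4 lower. Of the Mediator subunits 3 were higher and 7 lower in control-kd lines, where 11.5% of all genes were higher and 17.4% lower. Gtf2a1, the large subunit of TFIIA, rose by 0.71 ± 0.085 (adjusted p = 0.0149), where control-kd lines averaged -0.10, and the difference was called (adjusted p = 0.0372). Gtf2b, which is TFIIB, rose by 0.63 ± 0.049 in Taf5-kd and by 0.35 in control-kd lines. The TFIIH subunit gene Gtf2h1 was the decrease among the general factors, at -0.47 ± 0.080 in Taf5-kd and 0.42 in control-kd lines (difference -0.90, adjusted p = 0.0288). Med26, a Mediator subunit on chromosome 8, rose by 0.55 ± 0.066 in Taf5-kd and averaged -0.03 in control-kd lines, and Med23 fell by 0.29.

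The factors at the head of the ES cell circuit were close to the pool. Pou5f1, which encodes Oct4, read -0.04, -0.07, 0.07 and 0.27 in Taf5-kd lines, against 0.39, 0.30, 0.89 and 0.80 in control-kd lines. Sox2 averaged 0.04 ± 0.057 and Nanog 0.18 ± 0.119 in Taf5-kd lines, against 0.40 and 0.84 in control-kd lines. None of the 3 was called against the pool in Taf5-kd lines, and their differences from control-kd lines, -0.54, -0.36 and -0.66, were not called either (adjusted p = 0.184, 0.0734 and 0.0974).

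The lists of core and naive pluripotency genes, the second of which holds Nanog, had more decreases than increases. The excess was small on the naive list. Over all genes 10.0% were higher and 11.4% lower. Of 18 core pluripotency genes 1 was higher and 8 lower, with a median of -0.30 in Taf5-kd and 0.17 in control-kd lines, and of 19 naive pluripotency genes 0 were higher and 3 lower, with a median of -0.24 in Taf5-kd and 0.43 in control-kd lines. Both medians were lower in Taf5-kd #1 (-0.46 core, -0.32 naive) than in #2 (-0.12 core, -0.07 naive). Alpl, the tissue-nonspecific alkaline phosphatase by which ES colonies are stained, read -1.71, -1.58, -1.23 and -1.18 in Taf5-kd lines, against -0.31, -0.31, -0.35 and -0.59 in control-kd lines. Every Taf5-kd array lay below every control-kd array, and the difference of -1.04 was called (adjusted p = 0.041). Fgf4, the ES cell growth factor driven by Oct4 and Sox2, fell by 0.73 on the log2 scale (SE 0.057, adjusted p = 0.00838) and averaged 0.20 in control-kd lines (difference -0.92, adjusted p = 0.0194). Dppa5a averaged -0.81 ± 0.161 in Taf5-kd and 0.62 in control-kd lines, with a called difference (adjusted p = 0.0408).

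Gdf3, a TGF-beta family ligand, averaged -1.23 ± 0.114 in Taf5-kd and -0.75 in control-kd lines without a called difference. Jarid2, a partner of Polycomb repressive complex 2, averaged -0.90 ± 0.178, and Tdgf1, the Nodal coreceptor Cripto, -0.57 ± 0.104. Tex19.1, a germ cell and placental gene on chromosome 11, was the increase, at 0.95 ± 0.169 in Taf5-kd and -0.45 in control-kd lines (difference 1.40, adjusted p = 0.0451). The members of the core list that moved were an enzyme, ligands and chromatin genes among others, and not the 3 factors named first.

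For several naive factors the Taf5-kd lines were near the pool while the control-kd lines were above it. Esrrb averaged -0.24 (adjusted p = 0.262) in Taf5-kd and 1.34 in control-kd lines, and Tbx3 -0.36 (adjusted p = 0.266) in Taf5-kd and 2.02 in control-kd lines. Klf4 averaged -0.33 (adjusted p = 0.0546) in Taf5-kd and 0.92 in control-kd lines, and Nr0b1 -0.41 (adjusted p = 0.31) in Taf5-kd and 1.45 in control-kd lines. The differences between the 2 kinds of line were called for all 4 genes, with -2.37 for Tbx3 the largest of them. Dppa3, a maternal factor that protects against DNA demethylation, ran the other way, at -0.30 in Taf5-kd and -3.54 in control-kd lines (difference 3.24, adjusted p = 0.0431). Over the naive list 1 gene was higher and 7 were lower than in control-kd lines, beside 7.21% and 4.32% of all genes.

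Genes of DNA methylation showed 0 increases and 4 decreases among 15, where 10.0% of all genes were higher and 11.4% lower. Dnmt3l, the cofactor of the de novo methyltransferases, read -1.02, -1.08, -0.86 and -0.79 in Taf5-kd lines, against 0.55, 0.59, 0.90 and 0.83 in control-kd lines. The groups lay on opposite sides of the pool (difference -1.66, adjusted p = 0.0188). Tet2, which oxidises methylated cytosine, averaged -0.57 ± 0.089 in Taf5-kd and 0.93 in control-kd lines, with 1 Taf5-kd array at -1.12 and the other 3 between -0.59 and -0.23. The Nodal and BMP list had 1 increase and 7 decreases among 20 genes, and Nodal itself, on the primed epiblast list, fell by 0.96 (SE 0.078, adjusted p = 0.00854), with a called difference from control-kd lines of -0.79 (adjusted p = 0.0336). Lefty2, an inhibitor of Nodal, averaged -1.17 in Taf5-kd and -1.56 in control-kd lines.

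Endoplasmic reticulum chaperones had the largest share of members lower among the 38 gene lists. The unfolded protein response is the pathway by which misfolded protein in the endoplasmic reticulum induces chaperones through the sensors Ern1, Eif2ak3 and Atf6. Of its 22 listed genes 18 were lower and 0 higher, beside 11.4% and 10.0% of all genes, with a median of -0.73 in Taf5-kd and -0.64 in control-kd lines, against a median of 0.0045 over all genes. The 4 genes without a call were Eif2ak3 (-0.61), Xbp1 (-0.48), Edem1 (-0.21) and Ern1 (0.01). Hspa5, the chaperone BiP, read -0.98, -1.37, -1.19 and -1.06 in Taf5-kd lines, against -1.21, -1.03, -0.65 and -0.55 in control-kd lines. These ranges overlapped, and the difference was not called (adjusted p = 0.415). Its mean of -1.15 ± 0.131 was 2.22-fold below the pool (adjusted p = 0.0135). Hsp90b1, the chaperone Grp94, averaged -1.19 ± 0.115 in Taf5-kd and -0.88 in control-kd lines. The disulfide isomerase genes Pdia3 (-1.12), Pdia6 (-1.10) and Pdia4 (-1.03) and the lectin chaperone gene Calr (-0.79) fell as well.

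Control-kd lines had 16 of the 22 genes lower, beside 17.4% of all genes in those lines, so this decrease was measured in both kinds of line. Of the 22 genes, Atf6 was lower in Taf5-kd than in control-kd lines by the test (-0.75 in Taf5-kd, -0.39 in control-kd, difference adjusted p = 0.0369). Canx, a lectin chaperone, was higher than in control-kd lines by the test (-0.52 in Taf5-kd, -1.15 in control-kd, difference adjusted p = 0.0191), as was Edem1.

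The promoters of these genes are shown because they share the element through which the active form of Atf6 is known to act, the ER stress response element, spelled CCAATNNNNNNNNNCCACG. The motif was picked after the values were seen. It was searched on both strands in the RefSeq promoters of mouse build GRCm38.p6, from 250 bases before to 50 after the start of transcription (300 bases, the first promoter listed per gene). It was found in 8 of the 19 unfolded protein response genes with a listed promoter (42.1%) and in 22 of all 14652 promoters (0.15%), and all 8 genes were lower in Taf5-kd lines, as were 15 of the 19. A match is a description of the sequence and not a measured site. Each line below gives 60 bases of the coding strand of the gene, 5′ to 3′, with the motif or its reverse complement in capitals. Coordinates are of the printed bases. On the strand of transcription the motif ends 47 bases before the start in Hspa5, 80 in Pdia6, 87 in Dnajc3 and 127 in Canx, and its reverse complement 89 bases before the start in Hsp90b1, 144 in Calr and 108 in Creld2. In Syvn1 the motif ends 26 bases before the start. Hsp90b1 holds 2 matches, of which 1 is shown.
Hspa5, chr2:34772004-34772063, plus strand: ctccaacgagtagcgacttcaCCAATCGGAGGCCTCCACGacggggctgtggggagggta
Hsp90b1, chr10:86705513-86705572, minus strand: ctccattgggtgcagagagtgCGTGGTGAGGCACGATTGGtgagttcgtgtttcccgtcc
Calr, chr8:84847055-84847114, minus strand: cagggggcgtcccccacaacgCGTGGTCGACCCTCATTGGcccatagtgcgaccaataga
Canx, chr11:50325780-50325839, minus strand: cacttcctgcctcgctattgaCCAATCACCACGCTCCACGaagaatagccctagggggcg
Pdia6, chr12:17266470-17266529, plus strand: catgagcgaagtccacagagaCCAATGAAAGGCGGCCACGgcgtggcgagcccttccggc
Dnajc3, chr14:118937806-118937865, plus strand: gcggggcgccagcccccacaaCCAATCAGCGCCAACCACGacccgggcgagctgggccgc
Creld2, chr15:88819499-88819558, plus strand: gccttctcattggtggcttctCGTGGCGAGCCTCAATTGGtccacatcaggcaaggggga
Syvn1, chr19:6046511-6046570, plus strand: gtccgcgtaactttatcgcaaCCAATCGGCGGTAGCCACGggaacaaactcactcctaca
The log2 ratios of these 8 genes in Taf5-kd lines were -1.15, -1.19, -0.79, -0.52, -1.10, -0.76, -0.75 and -0.36 in the order printed, so Syvn1, a ubiquitin ligase of the endoplasmic reticulum, and Canx moved least.

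The list of amino acid and Atf4 response genes had 0 of 28 higher, 12 lower and 16 not called in Taf5-kd lines, against 7 higher and 6 lower in control-kd lines. Of all genes 10.0% were higher and 11.4% lower in Taf5-kd lines, and 11.5% higher and 17.4% lower in control-kd lines. The list had a median of -0.40 in Taf5-kd and 0.11 in control-kd lines. By the test 7 genes were lower than in control-kd lines, beside 4.32% of all genes. Atf4 and Slc7a1 head the list. Slc7a3, another cationic amino acid transporter, averaged -1.26 ± 0.090 in Taf5-kd and -0.67 in control-kd lines, and Slc1a4, a neutral amino acid transporter, -0.97 in Taf5-kd and -0.98 in control-kd lines. Nupr1, a small stress-induced chromatin protein, read -1.17, -1.07, -0.74 and -0.88 in Taf5-kd lines, against 0.96, 0.94, 0.32 and 0.36 in control-kd lines. The groups lay on opposite sides of the pool (difference -1.61, adjusted p = 0.0364). Trib3, a pseudokinase induced by Atf4, averaged -0.95 ± 0.137 in Taf5-kd and 0.54 in control-kd lines, and Cth, the cysteine-forming enzyme cystathionine gamma-lyase, -0.72 ± 0.143 in Taf5-kd and 0.91 in control-kd lines. Both differences were called (adjusted p = 0.0301 and 0.0283).

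Known Atf4 targets were not uniformly lower: Asns (0.13), Ddit3 (-0.17), Atf3 (0.21) and Chac1 (-0.83, adjusted p = 0.126) had no call. Of 20 cytosolic tRNA synthetases 2 were higher, both on chromosomes 8 and 11, and 5 lower, among them the cysteine enzyme Cars (-0.74 ± 0.121 in Taf5-kd, 0.34 in control-kd, difference adjusted p = 0.0398). The octamer TGATGCAA, a form of the composite element that Atf4 binds, chosen after the values were seen, was found on either strand in 6 of 25 amino acid genes with a listed promoter (24.0%) and in 106 of 14652 promoters (0.723%). Of the 6 genes, Slc1a4 and Nupr1 were lower, beside 9 of the 25. The Nupr1 promoter is shown as the gene with the larger difference from control-kd lines, with the reverse complement of the octamer in capitals, 103 bases before the start.
Nupr1, chr7:126625547-126625606, minus strand: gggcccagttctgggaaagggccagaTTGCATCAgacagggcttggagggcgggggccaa

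Zinc genes were the other list without an increase and with a majority of members lower. Zinc homeostasis rests on importers (Slc39), exporters (Slc30) and the metal-binding metallothioneins. Of 19 genes 12 were lower, beside 11.4% of all genes, with a median of -0.45 in Taf5-kd and -0.52 in control-kd lines. The intestinal-type importer gene Slc39a4 read -1.39, -1.45, -1.37 and -1.34 in Taf5-kd lines, against -0.24, -0.24, -0.20 and -0.17 in control-kd lines. Its arrays were tight within each group and far apart between groups (difference -1.17, adjusted p = 0.017). Slc11a1, a divalent metal transporter of phagosomes, averaged -0.94 ± 0.161 in Taf5-kd and 1.40 in control-kd lines (difference -2.34, adjusted p = 0.0221). The exporter gene Slc30a1 (-0.95) and the importer gene Slc39a14 (-0.93) fell in Taf5-kd lines, and both were lower in control-kd lines as well (-0.58 and -1.13). Mt1 averaged -0.46 ± 0.058 in Taf5-kd and 0.05 in control-kd lines (difference adjusted p = 0.0417), and Mt2 -0.69 ± 0.093 in Taf5-kd and -0.08 in control-kd lines (difference adjusted p = 0.0709).

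**Figure D4:**
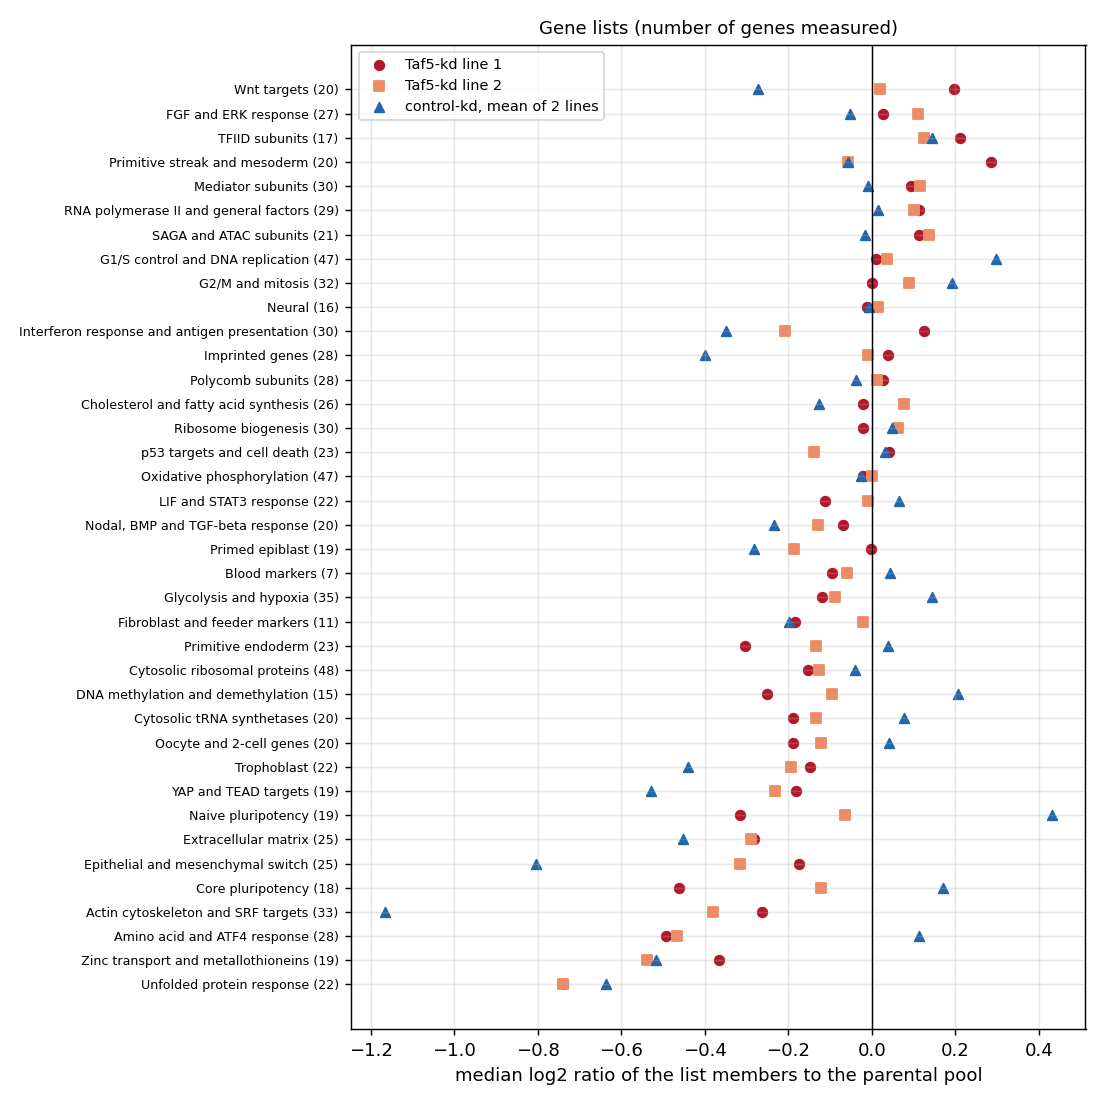
The median log2 ratio of each gene list to the parental pool is on the x axis, for each Taf5-kd line and for the mean of the 2 control-kd lines, with the number of measured genes after the list's name. The unfolded protein response has the lowest Taf5-kd median (-0.73 over both lines), and the actin and SRF list has -0.37 in Taf5-kd and -1.17 in control-kd lines.

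Genes of the cytoskeleton and matrix had more decreases than increases in both kinds of line. Of all genes 10.0% were higher and 11.4% lower than the pool, and 7.21% were higher than in control-kd lines. Of 33 actin cytoskeleton and SRF target genes 1 was higher and 13 lower, with a median of -0.37 in Taf5-kd and -1.17 in control-kd lines, and 18 were higher than in control-kd lines by the test, with 0 lower. Flna, which crosslinks actin filaments, averaged -1.35 ± 0.097 in Taf5-kd and -1.54 in control-kd lines, and Acta1, the skeletal muscle actin gene, -1.14 in Taf5-kd and -1.35 in control-kd lines. Tagln, an actin-binding protein of smooth muscle, averaged -1.03 ± 0.132 in Taf5-kd and -2.47 in control-kd lines, and Tpm1, a tropomyosin, -0.14 (adjusted p = 0.496) in Taf5-kd and -2.59 in control-kd lines. The differences of Tagln and Tpm1 were called (adjusted p = 0.03 and 0.0183).

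Of 25 extracellular matrix genes 2 were higher and 9 lower, beside 10.0% and 11.4% of all genes. Against control-kd lines 5 were higher and 0 lower, beside 7.21% and 4.32% of all genes. Besides Thbs1 and Col18a1 the 9 decreases included Fn1, fibronectin (-1.39 ± 0.100 in Taf5-kd, -0.80 in control-kd), and the matrix protease gene Mmp14 (-1.06 in Taf5-kd, -1.03 in control-kd). Of 19 YAP and TEAD targets 2 were higher, near the 10.0% of all genes, and 5 lower, beside 11.4%. Of the same 19, 8 were higher than in control-kd lines, beside 7.21% of all genes. The primitive endoderm list had 0 of 23 higher and 5 lower, beside 10.0% and 11.4% of all genes. The decreases were led by Nid1, the endocytic receptor gene Lrp2 (-1.43), the lipoprotein gene Apoe (-1.34) and Nid2 (-1.33). Of those, Nid1, Apoe and Nid2 were lower than in control-kd lines by the test, which 4.32% of all genes passed as lower. The 7 defining primitive endoderm markers had 0 called in either direction in Taf5-kd lines, but control-kd #2 stood apart on several of them. Gata6 averaged 2.95, Sox7 2.33, Dab2 1.39, Foxa2 0.97 and Sox17 0.55 in control-kd #2, where control-kd #1 lay between -0.61 and 0.22. The part of this signal in the differences from control-kd lines was not tested. Nid1, Apoe and Nid2 were lower on every Taf5-kd array than on both arrays of control-kd #1.

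Of 28 listed imprinted genes 3 were higher and 5 lower than the pool, beside 10.0% and 11.4% of all genes. The list median was 0.03 in Taf5-kd and -0.40 in control-kd lines. Sfmbt2, described above as imprinted and lower, is not on this list. The increases were Plagl1, H19 (0.49 ± 0.100, adjusted p = 0.0427), a growth-restraining noncoding RNA, and Peg3 (0.28 ± 0.038, adjusted p = 0.0181), a paternally expressed zinc finger gene. The decreases on the list were Grb10, Slc38a4, Phlda2, Igf2r and Ube3a. Grb10, an adaptor that restrains insulin and IGF signalling, read -0.69, -0.72, -1.68 and -1.69 in Taf5-kd lines, against 0.58, 0.57, 0.71 and 0.75 in control-kd lines. Both Taf5-kd lines were below the pool, #2 by more, and the difference from control-kd lines missed the threshold (adjusted p = 0.0528). Igf2, the fetal growth factor, averaged -0.13 (adjusted p = 0.801) in Taf5-kd and -3.24 in control-kd lines. Nnat averaged 0.13 (adjusted p = 0.781) in Taf5-kd and -2.02 in control-kd lines, and Dlk1 0.18 (adjusted p = 0.0601) in Taf5-kd and -0.92 in control-kd lines. Their differences were called, and over the list 8 genes were higher and 0 lower than in control-kd lines, beside 7.21% and 4.32% of all genes.

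Ribosomal protein genes had 2 of 48 higher and 15 lower, beside 10.0% and 11.4% of all genes, with a median of -0.15 in Taf5-kd and -0.04 in control-kd lines. Rpl9 (-1.25 ± 0.078), Rps28 (-1.24 ± 0.039), Rpl13 (-1.18 ± 0.065) and Rpl13a (-1.13 ± 0.080) had the lowest means, and Rps28 and Rpl13a were lower than in control-kd lines by the test. The 2 increases, Rpl26 (0.47) and Rpl27 (0.46), were both on chromosome 11. Many processed copies of such genes exist, and probes can read them, so single members are uncertain. The same holds for the glycolytic gene Gapdh (-1.05 ± 0.053 in Taf5-kd, -0.84 in control-kd). Of 35 glycolysis and hypoxia genes 3 were higher and 7 lower, where 10.0% of all genes were higher and 11.4% lower. Of 47 G1/S genes 8 were higher and 1, the helicase subunit Mcm7 (-0.20), lower, and the list median was 0.05 in Taf5-kd and 0.30 in control-kd lines. In control-kd lines 28 of these genes were higher, beside 11.5% of all genes.

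Single genes stood out in other lists. Icam1, a cell adhesion molecule on the LIF and STAT3 list, read -1.68, -1.69, -1.12 and -1.10 in Taf5-kd lines, against 0.08, 0.03, -0.08 and -0.07 in control-kd lines (difference -1.38, adjusted p = 0.0373). Il6st, the LIF coreceptor gp130, averaged -0.66 ± 0.057 in Taf5-kd and -0.43 in control-kd lines. Of 28 Polycomb genes 5 were higher and 5 lower, beside 10.0% and 11.4% of all genes, with Cbx2 (0.67 ± 0.063 in Taf5-kd, -0.07 in control-kd) and Yaf2 (0.64 ± 0.075 in Taf5-kd, -0.87 in control-kd) the largest increases, both with called differences. The 2 other Yaf2 probes read 0.02 and 0.05 and were not called. Cdh2, the neural cadherin gene, averaged 0.36 ± 0.073 in Taf5-kd and -1.41 in control-kd lines (difference 1.77, adjusted p = 0.017), while its 5 other probes lay between -0.02 and 0.07 and were not called. Laptm5, a lysosomal protein of blood cells, averaged -1.21 ± 0.151 in Taf5-kd and 0.93 in control-kd lines, while the 3 other defining blood markers lay between -0.09 and -0.01 and had no call. On the interferon list 0 of 30 genes were higher and 7 lower, beside 10.0% and 11.4% of all genes, led by Ifitm3 and Ifitm1 (-0.99 in Taf5-kd, -1.08 in control-kd). The list median was 0.03, with 0.12 in Taf5-kd #1 and -0.21 in #2, and 17 of the 30 genes lay above 0.

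Increases were unevenly spread over the chromosomes. On chromosome 8, 26.9% of genes were higher than the pool in Taf5-kd lines and 7.50% lower, and on chromosome 11 21.2% were higher and 6.21% lower, beside 10.0% and 11.4% over all genes. The other chromosomes had 6.36 to 11.4% of genes higher. Both chromosomes together hold 2343 genes (12.8%) and 548 of the 1835 increases (29.9%), but 157 of the 2089 decreases (7.52%). Among bright genes the chromosome 8 median was 0.14 and 0.19 in Taf5-kd #1 and #2, against -0.15 and -0.14 in control-kd #1 and #2, and that of chromosome 11 was 0.10 and 0.13 in Taf5-kd #1 and #2, against -0.15 and -0.14 in control-kd #1 and #2. The 2 Taf5-kd lines were thus shifted the same way and the 2 control-kd lines the opposite way. Among the increases named above, Hoxb8, Hoxb7, Hoxb1, Pctp, Nt5c3b, Vps53, Tex19.1, Taf15, Cbx2, Rpl26, Rpl27 and Med26 lie on these 2 chromosomes, and the part of the chromosome in their values was not tested.

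**Figure D5:**
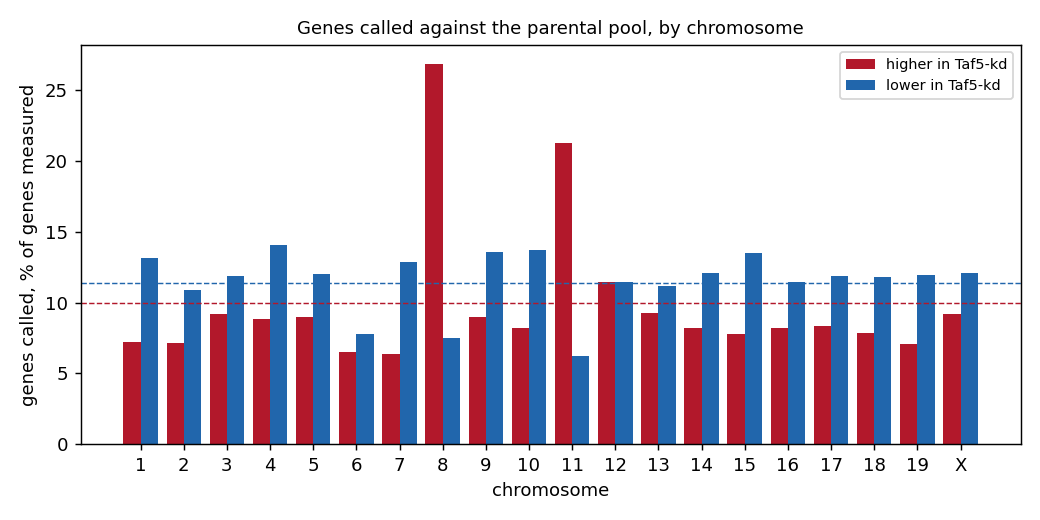
Bars give the share of measured genes that were called higher and lower than the parental pool in Taf5-kd lines, in percent, by chromosome. Chromosomes 8 (26.9% higher) and 11 (21.2% higher) stand above the others, which have 6.36 to 11.4% of genes higher.

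TATA boxes were also counted, because Tbp within TFIID binds this element. The motif TATAAA beginning 40 to 20 bases before the start, on the strand of transcription, was found in 369 of 14652 promoters (2.52%). It was found in 14 of 1489 genes that were higher in Taf5-kd lines (0.94%), in 27 of 1689 that were lower (1.6%) and in 328 of 11474 that were not called (2.86%). Of the 124 genes at least 2-fold lower with a listed promoter, 4 held it (3.23%). Of the 32 genes named for the size of their change, 26 had a promoter in the search and 0 held it.

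The authors' deposited table gives its own p-value for the same comparison, by a test that is not given in the sources used here. In the authors' deposited table the p was under 0.05 for 2044 probes, 667 higher and 1377 lower, and 1953 of them were called here in the same direction. Of the 24 leading genes, 20 had a p under 0.05 in the authors' deposited table, and the other 4 were Bhlhe22 (0.527), Cdx2 (0.0638), Zfp677 (0.815) and Ifitm3 (0.0828), each a gene on which the 2 Taf5-kd lines differed in size.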

How the data were processed

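Members, gene lists and tests were chosen with earlier results of these data known. Per the file headers, the scanner tables hold mean pixel intensity and local background for both dyes. The authors' processed matrix, deposited with the series, holds log2 ratios. Its medians lie between -0.0061 and 0.0073, and its correlation with the scanner ratios of the same arrays (sample over pool) is 0.806 to 0.961, which gives its direction. Its background correction and normalization were not given in the sources used here. Per the file headers, a comparison table of the authors holds p-values, of which 80.2% equal 1, and log2 differences, which equal the matrix means less -0.0185.

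Of 45220 spots 4046 controls were left out. The platform annotation, with symbols updated through RefSeq tables, names 1 gene for 34186 of 41174 mouse probes and none for 6988. The spread was fitted on the 4 line means, 2 per group (limma 3.58.1 in R 4.3.3, lmFit and eBayes), with 2 residual degrees of freedom and a prior of 2.24, and no dye term, since each mean holds both orientations. Both groups share that estimate, so errors and p-values of the Taf5-kd mean also hold the spread between control-kd clones. Taf5-kd #1 and #2 were also compared over 8 arrays with an array-number term, and a line difference was called by limma's treat over 1.25-fold. Scripts were tested on simulated data. Figures used Python 3.11.15 and matplotlib 3.10.9.

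Genes were named by a rule: every TFIID subunit; among called genes of 1 sign on all 4 Taf5-kd arrays, above background on all 4 and not clone-named, the 12 largest increases and decreases, the 8 each that also differed from control-kd lines and the 5 each that were also called in control-kd lines; and up to 4 per gene list. An unnamed probe and a clone-named gene with larger decreases fall outside it. Other genes printed above were picked as known members of their list after their values were seen. Alternatives were other normalizations of the scanner intensity values, fits over 8 arrays, lines, arrays or dye orientations left out, a filter on dim probes, trend and robust eBayes, 1 probe per gene, and chromosomes 8 and 11 left out.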

Additional observations from a re-analysis of the deposited data

Results flagged for a closer look

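For 11 of the 165 named genes the 2 Taf5-kd lines differed by more than 1.25-fold beyond the spread of their arrays (limma's treat, adjusted p under 0.05), so the mean of 2 lines stands for unlike values. The differences below are log2 values, #1 minus #2. Among genes above the pool, #1 was higher for Cdx2 (0.945, adjusted p = 0.000306), Zfp677 (1.03, adjusted p = 0.0158) and Bhlhe22 (0.779, adjusted p = 0.00114). Among genes below the pool, #1 was lower for Ifitm3 (-0.911, adjusted p = 0.000327), Jarid2 (-0.634, adjusted p = 0.0136), Spink1 (-0.604, adjusted p = 0.0485) and Icam1 (-0.575, adjusted p = 0.0311). Also below the pool, #2 was the lower line for Grb10 (0.982, adjusted p = 3.4e-05), the tight junction gene Cldn6 (0.785, adjusted p = 0.00147), the growth arrest gene Gadd45b (0.765, adjusted p = 0.00515) and the epithelial cadherin gene Cdh1 (0.687, adjusted p = 0.00828).

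Both lines lay on the same side of the pool for all 11 genes. Without a minimum fold, 60 of the 165 named genes differed between the lines, beside 2707 of 18295 genes in all (14.8%). No single array stood apart in any named gene by Dixon's test. That test takes the arrays as independent, but they come in pairs from the same line, so it can miss an array that stands apart.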

How the results depend on the processing

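None of the 158 named genes with a call reversed direction in the settings run. Among named genes without a call, 1 reversed under median centring. The direction of other probes was not compared. Against the pool (main values 7662 probes, 3425 higher and 4237 lower, 44.7% higher), 8 arrays with line as a random block gave 12518 (5934 higher, 6584 lower) with the replicate block on the array number and 13109 (6238, 6871) without it. Median centring without loess gave 334 (68, 266; 20.4% higher), 1 brightest probe per gene 4528 (1984, 2544), and either Taf5-kd line left out 0 (0, 0), with 9430 and 9695 at an unadjusted p under 0.05. Leaving out single arrays gave 7053 to 7837 (3082 to 3431, 3879 to 4406). For Taf5-kd minus control-kd (3610, 2241 higher and 1369 lower, 62.1% higher) the same settings gave 8891 (5157, 3734), 9583 (5537, 4046) and 147 (75, 72; 51.0% higher). Leaving out chromosomes 8 and 11 gave 2002 (1005 and 997, 50.2% higher), 1 probe per gene 1484 higher, control-kd line 1 left out 1128 (660, 468), Taf5-kd line 2 716 (513, 203), and control-kd line 2 or Taf5-kd line 1 0 (9334 and 7403 unadjusted). Single arrays gave 3231 to 3759 (2030 to 2339, 1201 to 1420). Taf5 was -1.19 to -1.11 without single arrays, -1.13 without Taf5-kd line 1 and -1.17 without line 2. With a line left out fewer samples carry the spread; other causes were not tested. Of 158 named genes called, 53 were called under median centring (22 of the 24 leading genes, not Zfp677 or Bhlhe22), and 19 lost the call in at least 1 of the 21 settings other than median centring and the 2 that leave out a Taf5-kd line. Of 38 list medians 13 changed sign in at least 1 of 25 settings: ribosome biogenesis in 4, cholesterol in 3, oxidative phosphorylation and p53 in 2 each and the other 9 in 1 each. Of medians printed above, these were the ribosomal (up to 0.01), imprinted (down to -0.0084), interferon (down to -0.21) and G1/S (down to -0.0012) medians. The array number is also the dye orientation. Deviations of same-numbered arrays from their line means correlated at -0.437 to -0.156 in the matrix and at 0.629 to 0.784 in scanner values. Because the dye orientation is part of these deviations, they cannot show whether the numbers pair cultures.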
